A study of Rattus norvegicus with 12 samples.

Results

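The genes of the rat major histocompatibility complex, called RT1 in this species, and the genes that load peptides onto its products were followed in rat calvaria, the bones of the top of the skull. The set holds every gene whose name on the array begins with RT1-, together with B2m, Tap1, Tap2, Tapbp, Cd74 and Ciita. Of 54 such gene names, represented by 75 probes, 46 passed a filter that asked for a signal well above background on at least 4 of 12 arrays, out of 22936 genes that passed it in all. They comprise 37 class I genes (the RT1 genes outside the class II region, B2m and the peptide loading genes) and 9 class II genes (the RT1-B and RT1-D chains, Cd74 and Ciita). The other 8 names lay below the filter and are RT1-Ba, RT1-DOa, RT1-Ha, RT1-M1-2, RT1-M1-4, RT1-M1-5, RT1-M5 and RT1-M6-1. RT1-CE5, on 4 arrays, was just inside the filter, and RT1-DOa, on 2 arrays, was just outside it.

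Calvarial bone of rats 10 weeks old was sampled 6 h after surgery, with 4 one-colour arrays per group and 3 groups. Laser-treated rats had a defect of 8 by 3 mm cut in 3 strokes of an Er:YAG laser, which emits infrared light that water takes up strongly, at an output of 127 mJ per pulse, 20 Hz and 20.2 J/cm2 per pulse. In the bur group a defect of that area was drilled with a bur fed at about 0.75 mm/s, and in the control group the periosteum was taken off and the bone was not ablated, so that all 3 groups underwent surgery. The labels give no strain, sex or RT1 haplotype and do not state whether each sample is another animal. The p-values therefore cover the spread between these samples alone.

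MHC class I molecules pair a heavy chain with the B2m light chain and show peptides from inside the cell to CD8 T cells and natural killer cells. The peptides are carried into the endoplasmic reticulum by the Tap1-Tap2 transporter, which tapasin, the product of Tapbp, joins to the waiting class I molecule. Class II molecules are pairs of alpha and beta chains made mainly by B cells, dendritic cells and macrophages. They are guided by the invariant chain Cd74, loaded with the help of DM, held back by DO, and switched on together by the regulator Ciita. In the rat the RT1-A region holds the classical class I genes, while the C/E and M regions hold many class I genes of the nonclassical kind.

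Levels are log2 processed signals relative to the 75th percentile of the same array, so a level of 0 equals that percentile. On the 12 arrays 67.8% to 73.7% of spots were well above background, the 75th percentile lay between 197.2 and 383.2, and 0 spots were saturated. The 4 control arrays shared 1 slide, and the 8 treated arrays were split over 2 more slides, with 2 arrays of either treatment on each, so that treatment against control cannot be told apart from slide or scan. Spike-in spots were brighter on the treated arrays by 3.21 on the log2 scale. All 8 markers of bone forming cells were measured in every group, and all 8 were higher in laser-ablated and 7 in bur-drilled than in control bone. In bulk bone, fewer cells of a type and less RNA per cell cannot be told apart.

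Many genes of the set fell in treated bone. After laser ablation 22 of 37 class I genes fell and 2 rose, and 5 of 9 class II genes fell and 0 rose (limma over all genes, Benjamini-Hochberg adjusted p below 0.05). Of all genes tested, 49.8% passed in that comparison, 17.6% as lower and 32.2% as higher. The laser and control arrays did not overlap for 25 class I and 5 class II genes, and for 48.7% of all genes. The median log2 fold change against control was -0.70 for class I and -0.59 for class II, beside 0.21 for all genes tested. After bur drilling 19 class I genes fell and 1 rose, and 4 class II genes fell and 0 rose, where 51% of all genes passed, 18.3% as lower and 32.7% as higher. The bur and control arrays did not overlap for 23 class I and 3 class II genes, and for 46% of all genes. The bur medians were -0.65 for class I, -0.48 for class II and 0.23 for all genes. RT1-T24-2, 1 of the 2 that rose after the laser, was well above background on treated arrays only and passed the filter through them, so its rise supports nothing. It is also among the 25 class I genes whose laser and control arrays did not overlap. RT1-M4, which likewise passed the filter only through treated arrays, is among the 23 class I genes without overlap for the bur. The laser and bur comparisons share the 4 control arrays.

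**Figure D1:**
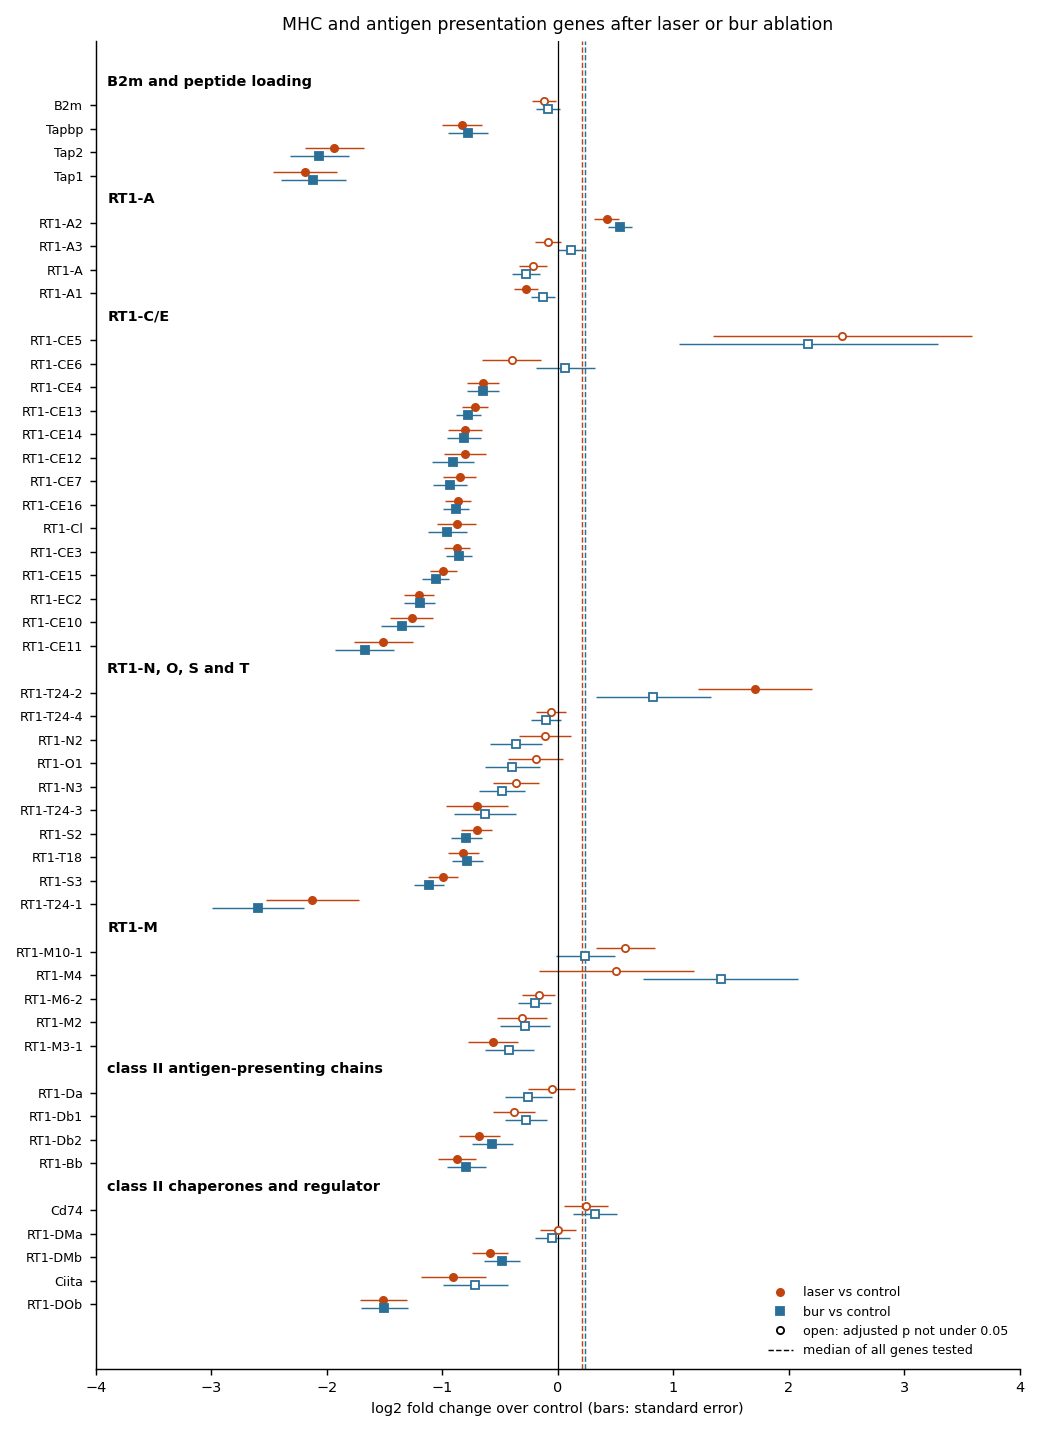
Log2 fold change over control (x axis) of all 46 genes after laser ablation (circles) and bur drilling (squares), with standard errors, grouped by gene family and function. Filled symbols passed an adjusted p of 0.05, and dashed lines mark the median of all 22936 genes at 0.21 (laser) and 0.23 (bur). Tap1, Tap2 and RT1-T24-1 lie farthest to the left, and RT1-A2 is the one RT1-A gene to the right of 0 with filled symbols in both comparisons.

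Both chains of the peptide transporter fell in both comparisons. Tap1 had levels of -3.01, -2.59, -2.19 and -2.59 in laser, -2.86, -2.95, -1.65 and -2.63 in bur and -0.74, -0.19, -0.29 and -0.42 in control bone. No treated array reached the lowest control array. Tap1 was 4.56-fold lower in laser than in control bone (log2 fold change -2.19 ± 0.28 SE, limma adjusted p = 0.000251) and 4.33-fold lower in bur than in control bone (-2.12 ± 0.28, adjusted p = 0.000337). Its partner Tap2 had levels of 1.01, 1.59, 1.19 and 1.29 in laser, 0.68, 0.62, 1.73 and 1.54 in bur and 2.91, 3.34, 3.38 and 3.21 in control bone. The Tap2 groups were again apart, with the 2 lowest values on bur arrays. Tap2 was 3.83-fold lower after the laser (limma adjusted p = 0.000292) and 4.18-fold lower after the bur (adjusted p = 0.000273). A further probe of each transporter gene passed as well, with log2 fold changes of -1.51 for Tap1 and -1.69 for Tap2 in laser-ablated bone and -0.90 for Tap1 and -1.90 for Tap2 in bur-drilled bone.

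Tapbp also fell in both comparisons. Its mean level was 0.10 ± 0.27 in laser, 0.15 ± 0.31 in bur and 0.93 ± 0.08 in control bone (SD, n = 4 each), a log2 fold change of -0.83 after the laser (limma adjusted p = 0.0031) and -0.78 after the bur (adjusted p = 0.00435). B2m had levels of 6.74, 6.73, 6.73 and 6.49 in laser, 6.65, 6.57, 6.85 and 6.75 in bur and 6.75, 6.81, 6.80 and 6.80 in control bone. All 12 values lie in a narrow band, although every laser value was below the lowest control value. The B2m difference did not pass in either comparison, at -0.12 ± 0.10 for laser (limma adjusted p = 0.368) and -0.08 ± 0.10 for bur (adjusted p = 0.524). B2m is among the genes whose call depends on scaling: with quantile normalization it was called lower, at -0.52 in laser and -0.39 in bur on the log2 scale (limma adjusted p = 0.00137 and 0.00532).

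Of 11 other genes of the immunoproteasome, peptide trimming and loading, 3 fell and 1 rose after the laser, and 2 fell and 0 rose after the bur. Over all genes tested, 17.6% fell and 32.2% rose after the laser, and 18.3% fell and 32.7% rose after the bur. Psmb9, a catalytic subunit of the immunoproteasome, had a log2 fold change of -0.84 for laser (limma adjusted p = 0.00449) and -0.70 for bur (adjusted p = 0.011). Calr, the loading chaperone calreticulin, fell by 0.45 after the laser and by 0.50 after the bur on the log2 scale (limma adjusted p = 0.0196 and 0.0115). Nlrc5, the transactivator of class I genes, had a log2 fold change of -0.89 in laser (limma adjusted p = 0.0164) and -0.63 in bur-drilled bone (adjusted p = 0.0655), so that it passed in the laser comparison and not in the bur comparison.

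**Figure D2:**
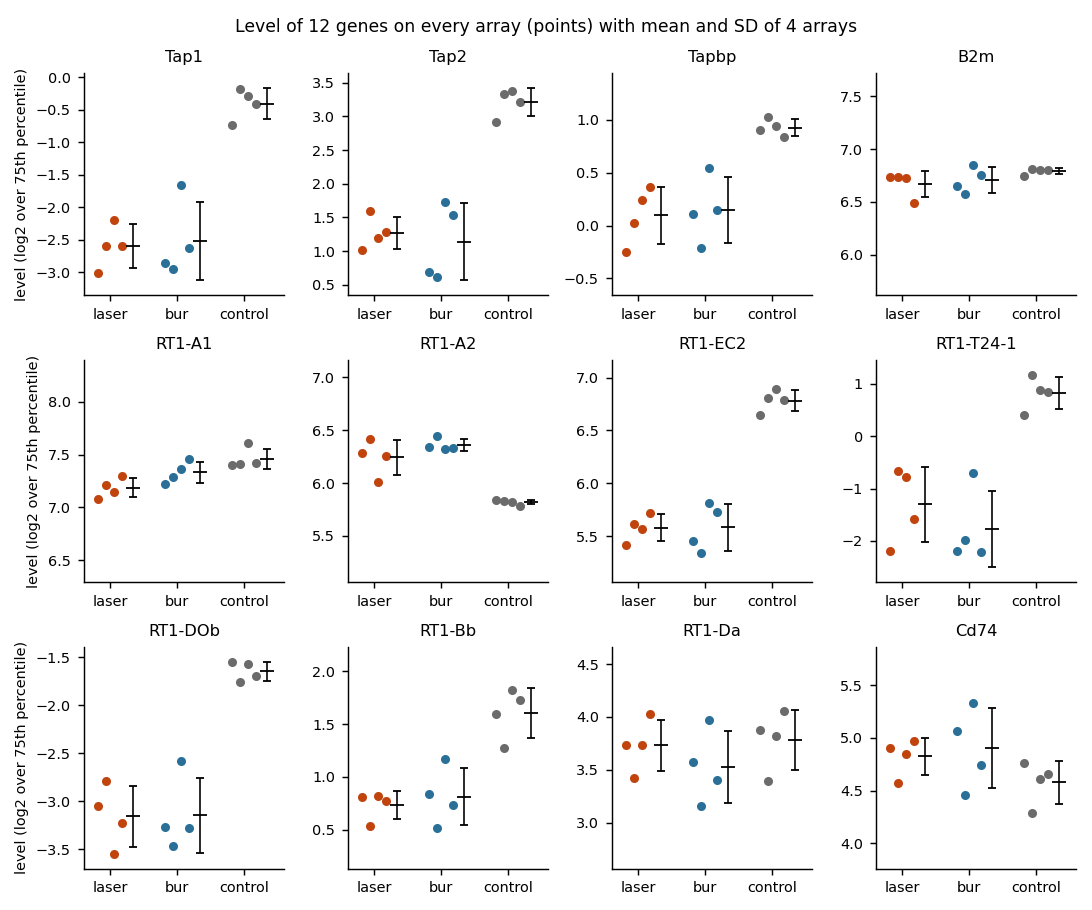
Level of 12 genes (y axis, log2 signal relative to the array's 75th percentile) on each of the 4 laser, 4 bur and 4 control arrays (points), with mean and SD. Tap1, Tap2, Tapbp, RT1-EC2, RT1-T24-1, RT1-DOb and RT1-Bb lie lower on all 8 treated arrays than on any control array, RT1-A2 lies higher, and the groups overlap for RT1-Da and Cd74.

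The calls of the 4 genes named RT1-A, RT1-A1, RT1-A2 and RT1-A3 depended on the scaling. The RT1-A probe starts at chr20:2837629, away from those of RT1-A3, RT1-A2 and RT1-A1 (starts chr20:5002119, 5025230 and 5060187). Whether it measures a classical gene is therefore uncertain. Of these 4 names, under the 75th percentile scaling 1 rose and 1 fell after the laser and 1 rose and 0 fell after the bur. RT1-A2 had levels of 6.29, 6.42, 6.01 and 6.26 in laser, 6.34, 6.44, 6.32 and 6.33 in bur and 5.84, 5.83, 5.83 and 5.79 in control bone. All 8 treated values were above all 4 control values. The rise of RT1-A2 was 1.34-fold for laser (log2 fold change 0.42 ± 0.11, limma adjusted p = 0.00773) and 1.45-fold for bur (0.54 ± 0.11, adjusted p = 0.00224). With quantile normalization the RT1-A2 difference was 0.07 for laser and 0.30 for bur and passed in neither (limma adjusted p = 0.659 and 0.0681), and with the treated arrays of slide 3 alone it was 0.31 for laser (adjusted p = 0.0874).

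RT1-A1 had levels of 7.08, 7.21, 7.15 and 7.30 in laser, 7.22, 7.29, 7.36 and 7.45 in bur and 7.40, 7.41, 7.60 and 7.42 in control bone. The laser values all lie below control, and the bur values overlap it. The laser difference of -0.28 ± 0.10 passed narrowly (limma adjusted p = 0.0452), and the bur difference of -0.13 did not (adjusted p = 0.316). Without 1 of 9 arrays, which were laser 1, 2 or 3, bur 2 or 3 or any control array, the laser call was lost, with adjusted p between 0.053 and 0.125. RT1-A3 changed by -0.09 in laser and 0.12 in bur, and RT1-A by -0.22 in laser and -0.27 in bur, and none of these differences passed. Under quantile normalization RT1-A1 was called lower in both, at -0.79 in laser and -0.51 in bur (limma adjusted p = 0.000838 and 0.00687). So was RT1-A, at -0.55 in laser and -0.53 in bur (limma adjusted p = 0.00742 and 0.00882). RT1-A3 was then at -0.51 in laser (limma adjusted p = 0.0125) and -0.22 in bur (adjusted p = 0.212). With the authors' normalized values, fitted in the same way, RT1-A and RT1-A1 were also called lower in both comparisons and 0 of the 4 RT1-A genes higher. The RT1-A probes share long runs of bases, 34 between RT1-A1 and RT1-A2, 29 between RT1-A and RT1-A2 and 28 between RT1-A1 and RT1-A3, so these genes may not be fully told apart.

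**Figure D3:**
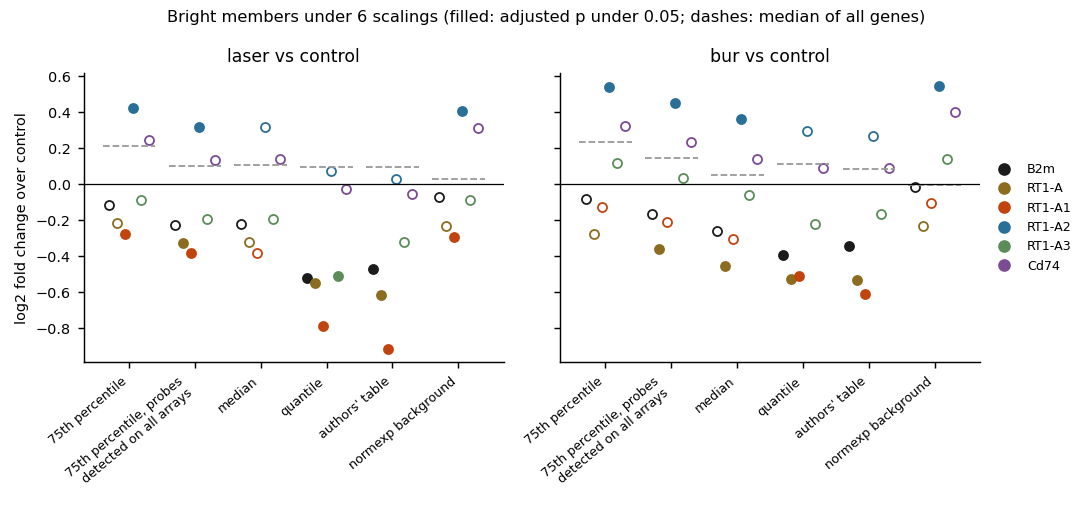
Log2 fold change over control (y axis) of B2m, the 4 RT1-A genes and Cd74 under 6 ways of scaling the arrays (x axis), for laser and bur. Filled points passed an adjusted p of 0.05 and dashes mark the median of all genes. RT1-A2 stays above 0 in all 12 cases and passes in 7 of them, while B2m passes as lower with quantile normalization and in the authors' normalized table.

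In the C/E region most genes fell. Of its 14 genes measured, 12 fell after the laser and 12 after the bur, with log2 fold changes of the falling genes between -1.51 and -0.65 for laser and between -1.67 and -0.65 for bur. RT1-EC2 had levels of 5.41, 5.61, 5.56 and 5.72 in laser, 5.46, 5.34, 5.82 and 5.73 in bur and 6.65, 6.81, 6.89 and 6.78 in control bone. The highest treated value is 5.82, well below the lowest control value, with differences of -1.20 ± 0.13 for laser and -1.20 ± 0.13 for bur (limma adjusted p = 0.000138 and 0.000191). RT1-CE11 had levels of 0.08, 0.78, 0.05 and -0.48 in laser, 0.14, 0.12, 0.01 and -0.46 in bur and 1.28, 2.00, 1.58 and 1.63 in control bone. It showed the deepest fall of this region, 2.85-fold in laser (limma adjusted p = 0.00101) and 3.18-fold in bur (adjusted p = 0.000636). RT1-CE10 followed, at -1.27 for laser and -1.35 for bur (limma adjusted p = 0.000448 and 0.000377).

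Probes of this region also share stretches of sequence. RT1-CE13, RT1-CE14, RT1-CE15, RT1-CE16 and RT1-S3 are among the genes with such probes. On the log2 scale they changed by -0.72, -0.80, -0.99, -0.87 and -0.995 in laser-ablated bone, in the order named, and by -0.77, -0.81, -1.06, -0.88 and -1.11 in bur-drilled bone. All 10 of these differences passed (limma adjusted p at most 0.00155). Across the set, 18 of 46 genes had a probe that shared at least 20 bases in a row with the probe of another gene of the set. Of these 18, 12 fell after the laser and 11 after the bur, and of the other 28, 15 fell after the laser and 12 after the bur. How much of one gene's signal comes from another gene's RNA was not tested. A further probe of RT1-CE15 did not pass, at -0.13 for both laser and bur, while those of RT1-CE3, RT1-CE7, RT1-CE13, RT1-CE16, RT1-EC2 and RT1-S3 fell with the probe used. The probes of RT1-A (chr20:2837629-2837688) and RT1-T24-4 (chr20:2837620-2837679) lie at overlapping positions, so these 2 names are uncertain. The RT1-EC2 probe used (chr20:3552126-3552185) lies close to that of RT1-CE3 (chr20:3552938-3553124). A further RT1-EC2 probe (chr20:5059139-5059198) lies close to that of RT1-A1 (chr20:5060187-5060246). The name RT1-EC2 is therefore uncertain too, and its probes may not measure 1 gene.

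The 2 genes of the C/E region that did not pass were RT1-CE5 and RT1-CE6. RT1-CE5 had levels of -1.65, -1.32, -5.03 and -4.92 in laser, -1.88, -1.46, -5.34 and -5.41 in bur and -6.61, -5.49, -5.82 and -4.86 in control bone. The 4 high values, the ones well above background, were laser 1 and 2 and bur 1 and 2, which are the 4 arrays of slide 1. RT1-CE5 was well above background on 0 control arrays and passed the filter only through these 4 treated arrays. On the other 2 arrays of each treated group it was not well above background, so no bound is given for its fold. Its differences from control did not pass (limma adjusted p = 0.0872 for laser and 0.124 for bur). With the treated arrays of slide 3 alone, they were 0.72 for laser and 0.31 for bur on the log2 scale (limma adjusted p = 0.219 and 0.577). RT1-M4, with the highest values on the 4 arrays of slide 1, is similar. It was well above background on 2 laser, 4 bur and 0 control arrays and did not pass (limma adjusted p = 0.546 for laser and 0.0992 for bur).

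Of the 10 genes of the N, O, S and T groups, 5 fell and 1 rose after the laser and 4 fell and 0 rose after the bur. RT1-T24-1 had levels of -2.19, -0.66, -0.79 and -1.58 in laser, -2.19, -1.99, -0.70 and -2.21 in bur and 0.40, 1.17, 0.88 and 0.84 in control bone. The treated arrays spread more widely than the control arrays and all lie below them. RT1-T24-1 was 4.36-fold lower after the laser (limma adjusted p = 0.00176) and 6.05-fold lower after the bur (adjusted p = 0.000659). RT1-S2 changed by -0.70 for laser and -0.79 for bur, and RT1-T18 by -0.82 for laser and -0.78 for bur, and all 4 differences passed.

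RT1-T24-2 was the 1 gene of this group called higher, in the laser comparison. Its levels were -3.69, -2.98, -3.99 and -4.18 in laser, -3.43, -4.01, -4.85 and -6.06 in bur and -5.92, -5.61, -5.02 and -5.11 in control bone. It was well above background on 3 laser, 2 bur and 0 control arrays, so the laser difference is given as at least 1.86-fold higher than control (limma adjusted p = 0.0154), and the bur difference did not pass (adjusted p = 0.179). It entered the test only through treated arrays, and with normexp background correction its laser difference did not pass (limma adjusted p = 0.708). RT1-T24-3 passed narrowly for laser, at -0.70 (limma adjusted p = 0.0475), with overlapping groups, and lost its call without any 1 of 10 arrays, all except laser 2 and bur 3 (adjusted p 0.0514 to 0.132). RT1-N2, RT1-N3, RT1-O1 and RT1-T24-4 did not pass in either comparison. A further probe of RT1-N3 did, at -1.25 for laser and -1.42 for bur (limma adjusted p over all probes 0.00185 and 0.000963). With the authors' normalized values RT1-T24-4 was called lower in both comparisons.

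Of the 5 M genes measured, 1 fell after the laser and 0 after the bur. RT1-M3-1, whose mouse counterpart presents formylated peptides, had a mean level of 0.60 ± 0.31 in laser, 0.74 ± 0.43 in bur and 1.16 ± 0.11 in control bone (SD, n = 4 each). The laser difference of -0.56 sat at the threshold (limma adjusted p = 0.0498) and was lost without any 1 of 10 arrays, all except bur 1 and 3 (adjusted p 0.0518 to 0.141). A further RT1-M3-1 probe lay in the other direction, at 0.97 for laser and 0.87 for bur, and did not pass. RT1-M2, RT1-M6-2 and RT1-M10-1 passed in neither comparison. With quantile normalization and with the authors' normalized values, however, RT1-M6-2 was called lower in both.

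Among the class II genes the antigen-presenting chains split. RT1-Bb, the beta chain of the rat counterpart of human DQ, had levels of 0.81, 0.53, 0.82 and 0.77 in laser, 0.84, 0.52, 1.17 and 0.73 in bur and 1.60, 1.27, 1.82 and 1.73 in control bone. Every treated value was below every control value, with differences of -0.87 ± 0.16 for laser and -0.79 ± 0.16 for bur (limma adjusted p = 0.00183 and 0.003). RT1-Da, the alpha chain of the counterpart of human DR, had levels of 3.74, 3.42, 3.73 and 4.03 in laser, 3.58, 3.16, 3.97 and 3.4 in bur and 3.87, 3.39, 3.82 and 4.06 in control bone. The RT1-Da groups overlap, and its differences of -0.05 ± 0.20 and -0.26 ± 0.20 did not pass (limma adjusted p = 0.838 and 0.305). The DR-like beta chain RT1-Db1 did not pass either, at -0.38 for laser and -0.28 for bur (limma adjusted p = 0.103 and 0.216). This depends on the scaling: with quantile normalization and with the authors' normalized values RT1-Db1 was called lower in both comparisons. RT1-Db2 was called lower in both, at -0.68 for laser and -0.57 for bur (limma adjusted p = 0.00962 and 0.0217), but lost the bur call without bur 2 or 4 or control 1 or 4 (adjusted p 0.0502 to 0.0607).

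The genes that help class II molecules to be loaded also differed among themselves. RT1-DOb, the beta chain of DO, which restrains DM, had levels of -3.05, -2.79, -3.55 and -3.23 in laser, -3.27, -3.46, -2.58 and -3.28 in bur and -1.55, -1.76, -1.58 and -1.70 in control bone. Treated and control values were clearly apart, and RT1-DOb was 2.85-fold lower after the laser and 2.83-fold lower after the bur (limma adjusted p = 0.000341 and 0.00039). This was the largest log2 fold change of the 9 class II genes in both comparisons. Of the DM pair, which exchanges peptides on class II molecules, RT1-DMb fell by 0.59 after the laser and by 0.48 after the bur on the log2 scale (limma adjusted p = 0.0107 and 0.0256), while RT1-DMa had differences of 0.00 and -0.05 and passed in neither. The bur call of RT1-DMb was lost without bur 2 or 4 or control 1 or 4 (limma adjusted p 0.0509 to 0.0708).

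Cd74, the invariant chain, had levels of 4.91, 4.57, 4.85 and 4.97 in laser, 5.07, 4.46, 5.33 and 4.74 in bur and 4.76, 4.29, 4.61 and 4.66 in control bone. These values overlap, and the differences of 0.24 ± 0.19 for laser and 0.32 ± 0.19 for bur did not pass (limma adjusted p = 0.297 and 0.174). Ciita, the class II regulator, had a mean level of -1.25 ± 0.51 in laser, -1.06 ± 0.45 in bur and -0.34 ± 0.26 in control bone (SD, n = 4 each). It was called lower for laser, at -0.90 (limma adjusted p = 0.0208), and not for bur, at -0.71 (adjusted p = 0.0525). The laser call of Ciita was lost without laser 1 or control 3 (limma adjusted p = 0.057 and 0.0552). A further Ciita probe had differences of 0.38 and 0.63 in the opposite direction, and neither passed.

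Of the 7 factors that bind class II promoters, 2 fell after the laser and 3 after the bur, and these were subunits of NF-Y, the factor that binds the Y box. Nfyc had differences of -0.44 for laser and -0.86 for bur (limma adjusted p = 0.0367 and 0.00155), Nfyb had -0.76 and -0.94 (adjusted p = 0.0145 and 0.00517), and Nfya had -0.59 and -1.11 (adjusted p = 0.0766 and 0.00504). Of 7 genes of class II antigen processing, 3 rose after the laser and 2 after the bur, and 0 fell in either. Ctsl, the lysosomal protease cathepsin L, rose by 0.99 in laser and 0.82 in bur on the log2 scale (limma adjusted p = 0.00202 and 0.00511). March1, which removes class II molecules from the cell surface, was higher by 0.94 in laser and 1.19 in bur (limma adjusted p = 0.0355 and 0.0128). With the mean of its probes, however, the March1 difference was -0.27 for laser and did not pass (limma). Of 4 co-stimulation genes 2 rose in each comparison, Cd40 by 0.86 in laser and 0.98 in bur and Cd274, which encodes the inhibitory ligand PD-L1, by 0.85 and 0.76. These 3 lists are short, and 32.2% of all genes rose and 17.6% fell after the laser, and 32.7% and 18.3% after the bur.

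Sequence upstream of the annotated gene start is shown to set the letters before genes that rose, fell or did not pass side by side. Promoters came from RefSeq on GRCr8, and 37 of the 46 genes were matched. The search covered the 250 bases before the start on both strands, and capitals mark 4 motifs: the Y box (TGATTGG), the X box core (GCAACNGA), the enhancer A core (GGATTCC) and an interferon regulatory factor motif (GAANNGAAA, or the same with 1 more A after the first GAA). The last 200 bases before the start are printed. RT1-A2 rose, RT1-CE11 and RT1-CE10 fell, RT1-Da did not pass, RT1-DOb fell, and Tap2 fell.
RT1-A2 (chr20:4872671-4872870, plus strand): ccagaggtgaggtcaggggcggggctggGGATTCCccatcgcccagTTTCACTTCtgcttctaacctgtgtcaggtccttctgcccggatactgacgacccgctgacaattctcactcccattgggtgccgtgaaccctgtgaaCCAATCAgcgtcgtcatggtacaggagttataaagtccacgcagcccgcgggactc
RT1-CE11 (chr20:3363199-3363398, minus strand): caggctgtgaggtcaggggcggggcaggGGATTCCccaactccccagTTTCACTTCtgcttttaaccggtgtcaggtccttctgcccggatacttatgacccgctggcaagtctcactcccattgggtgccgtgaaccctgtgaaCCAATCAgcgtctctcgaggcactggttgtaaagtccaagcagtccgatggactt
RT1-CE10 (chr20:3384980-3385179, minus strand): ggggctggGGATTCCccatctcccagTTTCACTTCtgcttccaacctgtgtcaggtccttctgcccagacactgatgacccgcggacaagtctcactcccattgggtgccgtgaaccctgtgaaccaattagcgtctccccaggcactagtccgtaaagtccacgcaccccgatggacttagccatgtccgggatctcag
RT1-Da (chr20:4515215-4515414, plus strand): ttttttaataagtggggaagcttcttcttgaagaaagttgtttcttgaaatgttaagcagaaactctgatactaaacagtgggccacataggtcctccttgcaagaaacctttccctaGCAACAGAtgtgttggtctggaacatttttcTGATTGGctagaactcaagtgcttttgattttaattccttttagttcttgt
RT1-DOb (chr20:4627524-4627723, minus strand): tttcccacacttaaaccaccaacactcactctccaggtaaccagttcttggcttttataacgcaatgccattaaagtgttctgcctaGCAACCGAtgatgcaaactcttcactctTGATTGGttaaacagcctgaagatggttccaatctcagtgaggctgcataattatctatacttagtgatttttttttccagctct
Tap2 (chr20:4652297-4652496, minus strand): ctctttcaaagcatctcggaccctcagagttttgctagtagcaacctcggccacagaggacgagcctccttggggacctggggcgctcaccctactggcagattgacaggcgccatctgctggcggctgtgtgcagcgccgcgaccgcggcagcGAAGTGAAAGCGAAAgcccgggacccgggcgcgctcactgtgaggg

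The 250-base promoters of RT1-A2 and RT1-CE11 differ by 35 single-base edits, and those of RT1-A2 and RT1-A3 by 32. The other pairs compared were farther apart: RT1-A2 and RT1-A1 by 113, RT1-A2 and RT1-CE10 by 66, and RT1-CE10 and RT1-CE11 by 63. RT1-Da and RT1-DOb differ by 137. Each of the RT1-A2 and RT1-CE11 promoters holds 1 enhancer A core, 1 interferon regulatory factor motif and 1 Y box, and RT1-CE10 holds the first 2 of these without a Y box match. RT1-Da and RT1-DOb both hold 1 X box core and 1 Y box. In the Tap2 promoter 2 interferon regulatory factor matches overlap. The Y box was found in 6 of 7 class II and 13 of 26 class I RT1 promoters, against 6.42% of all 33469 promoters. The X box core was found in 4 of 7 class II and 1 of 26 class I RT1 promoters, against 2.39% of all. The enhancer A core was found in 0 of 7 class II and 9 of 26 class I RT1 promoters (3.05% of all), and the interferon regulatory factor motif in 1 of 7 and 16 of 26 (9.95% of all). A match is a description of the letters and not a binding site.

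Class I and class II were also compared as a whole on each array, as the mean of each gene's level relative to its own 12-array mean. The class I mean includes RT1-CE5, RT1-M4 and RT1-T24-2, which passed the filter only through treated arrays. Their mean levels were higher in laser and bur than in control bone, which makes the fall of the class I mean smaller. The class I mean was -0.20, 0.08, -0.24 and -0.28 on the laser arrays, -0.14, -0.19, -0.15 and -0.30 on the bur arrays and 0.22, 0.43, 0.35 and 0.41 on the control arrays. All treated arrays lay below all control arrays for class I. On laser 2, whose class I mean was above 0, RT1-CE5, RT1-M4 and RT1-T24-2 were at -1.32, -3.80 and -2.98. Their 12-array means were -4.15, -4.40 and -4.57, so these genes raise the class I mean of laser 2. The class II mean was -0.16, -0.31, -0.18 and -0.11 on the laser arrays, -0.08, -0.50, 0.19 and -0.19 on the bur arrays and 0.41, 0.07, 0.40 and 0.46 on the control arrays. For class II the laser arrays lay below control, while bur 3 lay above control 2. The difference of class II minus class I ranged from -0.40 to 0.18 in laser, from -0.31 to 0.34 in bur and from -0.36 to 0.19 in control bone, so the 3 groups overlapped fully in it. This difference rests in part on RT1-CE5, RT1-M4 and RT1-T24-2, so it does not show that the classes fell alike.

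**Figure D4:**
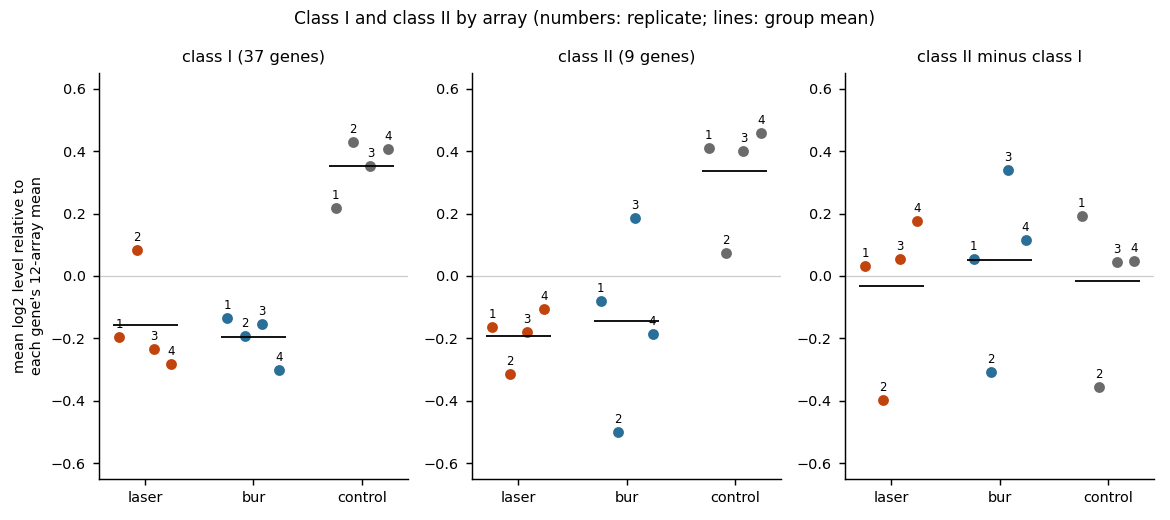
Mean log2 level of the 37 class I genes, of the 9 class II genes, and class II minus class I (y axes, each gene relative to its 12-array mean) on each laser, bur and control array; digits are replicate numbers and lines are group means. All 4 control arrays lie above all treated arrays for class I, bur 3 lies above control 2 for class II, and class II minus class I averages -0.03 in laser, 0.05 in bur and -0.02 in control bone. The class I mean includes RT1-CE5, RT1-M4 and RT1-T24-2, which passed the filter only through treated arrays and make its fall smaller.

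Markers of blood cells moved along with these genes. For scale, 17.6% of all genes fell and 32.2% rose after the laser, and 18.3% fell and 32.7% rose after the bur. Of 11 B cell markers, 8 fell after the laser and 7 after the bur and 0 rose, and their mean level ranged from -2.36 to -0.36 in laser, from -1.49 to 0.24 in bur and from 0.29 to 0.86 in control bone. Cr2, a B cell complement receptor, was well above background on 0 laser, 1 bur and 4 control arrays. Of 9 T and NK cell markers, 6 fell after the laser and 5 after the bur, with mean levels of -2.92 to -1.45 in laser, -2.80 to -1.06 in bur and -1.14 to -0.63 in control bone. The T cell marker Cd5 was well above background on 0 laser, 1 bur and 4 control arrays. Of 6 granulocyte precursor markers 5 fell in each comparison, with mean levels of 0.33 to 2.52 in laser, 0.61 to 2.80 in bur and 3.74 to 4.04 in control bone. The part of these cells in the falls of class I and class II genes was not tested.

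Other presenting cells moved less evenly, and their counts stand beside the same shares of all genes. Of 11 macrophage and monocyte markers, 5 fell and 1 rose after the laser and 4 fell and 1 rose after the bur. Their mean level was 1.91 to 2.15 in laser, 1.74 to 2.31 in bur and 2.07 to 2.49 in control bone. Of 8 dendritic cell markers, 2 fell and 3 rose after the laser and 3 fell and 4 rose after the bur, with mean levels of -0.99 to -0.46 in laser, -1.14 to -0.29 in bur and -1.13 to -0.85 in control bone. Of 7 endothelial markers 1 fell and 1 rose after the laser and 1 fell and 2 rose after the bur. Their mean level was 0.65 to 1.1 in laser, 0.70 to 1.02 in bur and 0.79 to 1.16 in control bone. The endothelial marker Vwf lay above control in both comparisons, but below it with the mean of its probes. Bone forming cell markers averaged 3.81 to 4.24 in laser, 3.55 to 4.0 in bur and 2.07 to 2.72 in control bone.

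Among 9 receptors and signalling genes with which T and NK cells read MHC, 6 fell in each comparison and 0 rose. Cd3e, a chain of the T cell receptor complex, had differences of -1.58 for laser and -1.70 for bur (limma adjusted p = 0.0103 and 0.00729). Klrk1, the receptor NKG2D, had -1.55 and -2.27 (limma adjusted p = 0.0307 and 0.00521). Interferon gamma, the main inducer of both classes, lay below the filter. Of 8 other genes of its signalling path, 1 rose and 0 fell after the laser and 2 rose and 1 fell after the bur. Ifngr2, 1 chain of its receptor, was higher by 1.09 in laser and 1.17 in bur (limma adjusted p = 0.00046 and 0.000377). Ifngr1, the other chain, had differences of -0.51 for laser and -0.59 for bur (limma adjusted p = 0.0505 and 0.0285), and Irf1, an interferon regulatory factor, had 0.11 and 0.46 (adjusted p = 0.543 and 0.0264). The share of all genes that rose was 32.2% for laser and 32.7% for bur, and 17.6% and 18.3% fell.

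Between laser-ablated and bur-drilled bone 0 of the 46 genes passed, and 0 had an unadjusted p below 0.05. Of all genes tested 0.00436% passed in this comparison and 6.5% had an unadjusted p below 0.05 (limma). The groups of 0 of the 46 genes were apart, against 3.57% of all genes. The median log2 difference of laser minus bur was 0.04 for class I and -0.08 for class II. Single differences ranged from -0.90 for RT1-M4 to 0.88 for RT1-T24-2, both measured well above background on only some of the treated arrays. For Tap1 the difference was -0.07 ± 0.28 and for RT1-A2 -0.12 ± 0.11. A difference that did not pass does not show that the 2 treatments act alike.

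The authors' deposited table held 32 of the class I and all 9 class II probes used here. At an adjusted p below 0.05 the authors' deposited table had, for laser against control, 23 class I and 5 class II genes lower and 0 higher, where 21.6% of its probes were lower and 29% higher. For the bur the authors' deposited table had 23 class I and 5 class II genes lower and 1 class I gene, RT1-M4, higher, where 22.7% of its probes were lower and 28.4% higher. For laser against bur the authors' deposited table had 0 of either class and 0.00401% of its probes. The counts do not cover the same genes as those called here. For laser, B2m, RT1-A, RT1-M6-2, RT1-T24-4 and RT1-Db1 were lower in the deposited table only. Ciita was lower for laser here only, and RT1-A2 and RT1-T24-2 were higher here only. For the bur, B2m, RT1-A, RT1-A1, RT1-M6-2, RT1-T24-3, RT1-T24-4 and RT1-Db1 were lower in the deposited table only, and RT1-A2 was higher here only.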

How the data were processed

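Total RNA (200 ng per sample) was labelled with Cy3 and hybridised to 12 one-colour arrays, per the labels. Spot intensity values were deposited by the authors as background-subtracted output of the Agilent scanner software Feature Extraction, version 11.0.1.1 in the file headers. A deposited matrix holds log2 values, normalized by quantiles per the submitters' processing notes, and the deposited comparisons give log2 fold changes with raw and adjusted p-values. The sources used here do not name their test.

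Here the processed signal was log2 transformed without control spots and spots marked as outliers, spots of a probe were averaged, and each array's 75th percentile was subtracted, which hides a change shared by most genes. Probes well above background on at least 4 arrays were kept, and the brightest per gene name was used. Names are those of the array design, with coordinates on RGSCv3.4. Exon and UTR annotation of that build was not used here. Groups came from sample titles. The test was limma (version 3.58.1, R version 4.3.3; lmFit, then eBayes) on all 12 arrays together (two-sided, Benjamini-Hochberg over 22936 genes, threshold 0.05). For a probe that no array of a group measured well above background, a fold, where given, is a bound ("at least"). It divides the brighter group's mean by the dimmer group's mean of, per array, the probe's own signal or the lowest well-measured probe's, whichever is higher. The number of arrays limits the precision. The fit was tested on simulated data. Every member of the set and, from each list, up to 3 genes by smallest adjusted p are named. Members, lists and tests were chosen with earlier results of these data known, so counts over them get no test. Alternatives covered scaling, background correction, filters, probes, blocks and left-out arrays. Probe sequences are not reported here.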

Additional observations from a re-analysis of the deposited data

Results flagged for a closer look

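In 11 of 144 groups of 4 arrays (46 genes and 2 class means in 3 groups) 1 array stood apart from the other 3, by a ratio of gap to range that chance exceeds in about 1 of 20 groups. On laser 4 the B2m level was 6.49, against 6.73 to 6.74 on the other laser arrays. On laser 2 RT1-Db1 was at 2.86, against 3.30 to 3.37, and on laser 1 RT1-O1 was at -2.52, against -1.70 to -1.62. On bur 3 RT1-T24-1 was at -0.70, against -2.21 to -1.99, and RT1-CE10 was at -1.36, against -1.71 to -1.68. RT1-Cl was at 1.01 on bur 2, against 0.78 to 0.82, and RT1-CE13 was at 3.15 on bur 4, against 2.91 to 2.94. Among the control arrays RT1-A1 was at 7.60 on control 3, against 7.40 to 7.42, and RT1-A was at 5.72 on control 4, against 5.80 to 5.81. RT1-T24-4 was at 5.74 on control 2, against 5.62 to 5.63. The class II mean of control 2 was 0.074, against 0.40 to 0.46 on the other control arrays.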

How the results depend on the processing

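Of the 29 genes called in laser against control, 22 kept their call under all 16 settings other than leaving out an array and 25 under all 12 fits without 1 array. Of the 24 called in bur against control these numbers were 21 and 22. The scaling moves the values of all genes: the all-gene median change was 0.21 for laser and 0.23 for bur as reported, and 0.09 and 0.11 with quantile normalization, with higher calls making up 64.7% and 64.2% of calls as reported, 56.3% and 54.7% with quantile normalization and 55.6% and 51.6% with normexp. Median centring gave 58.0% and 51.6%, the percentile over detected probes 55.4% and 56.7%, and the normalized values of the authors 57.6% and 54.0%. The class I median moved to -0.83 with quantile normalization for laser, and for bur to -0.83 with median centring and -0.78 with only probes detected on all arrays. With the mean of a gene's probes the class II median was -0.38 for laser and -0.28 for bur. With treated arrays of slide 3 only, the class I median of laser minus bur was -0.082.

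For bur, 2 class II genes were called with slide as a block and 2 with slide 3 only, and 2 to 5 without 1 array. Over all genes, laser against bur gave 5 calls with normexp, 10 with slide as a block, 2 with an intensity trend, 0 with the mean of probes, 0 with only 2 groups in the fit, 0 with treated arrays of slide 1 or of slide 3 only, and 0 to 1 without 1 array. With the authors' normalized table RT1-M3-1 was at 0.29 and with the mean of probes at 0.20 for laser, and Vwf, an endothelial marker, was at -0.23 and -0.043 for laser and -0.23 and -0.073 for bur. The main fit gave the opposite sign in each of these cases. March1 for laser was at -0.27 with the mean of probes. For RT1-M3-1 the probe used was at -0.56 for laser and a further probe was at 0.97. The authors' deposited table did not hold the RT1-M3-1 probe used, so both RT1-M3-1 values above involve the further probe. The cause of the other changes was not tested. Using 1 treated slide at a time was added after seeing the data.

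Same-numbered samples correlated between 0.04 and 0.58 in their deviations, not all above 0.1, so the main fit did not take the numbers as pairs. Pairs are not excluded by this. Between laser and bur, numbers 1 to 4 gave 0.58, 0.04, 0.52 and 0.40, against 0.05, 0.21, 0.19 and 0.13 for the best other number. Against control the same-numbered value was above the best other number except for laser 4 (0.11 against 0.19) and bur 3 (0.10 against 0.13). For laser 2, laser 3 and bur 2 it was above by little. With replicate number as a block, 24 class I and 6 class II genes were called for laser, 23 and 5 for bur, and 0 and 0 for laser against bur.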

Other observations

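The replicate numbered 2 was the lowest of its group in laser, bur and control bone for 5 of 9 class II genes, namely Cd74, RT1-Bb, RT1-Da, RT1-Db1 and RT1-Db2. This held for 0 of 37 class I genes and for 4.25% of all genes tested. Cd74 was at 4.57 on laser 2, 4.46 on bur 2 and 4.29 on control 2, and RT1-Da was at 3.42 on laser 2, 3.16 on bur 2 and 3.39 on control 2. The difference of class II minus class I was -0.40 on laser 2, -0.31 on bur 2 and -0.36 on control 2, while it lay between 0.03 and 0.34 on the other 9 arrays. Its class I part includes RT1-CE5, RT1-M4 and RT1-T24-2, which passed the filter only through treated arrays. The labels do not say what samples of 1 number share, and the pattern was noticed in these data and got no test.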
